A study of Mus musculus with 6 samples.

Results

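The replication-dependent histone genes of mouse chromosome 13 lie in a pair of dense arrays, the Hist1 clusters, and the ubiquitylated form of histone H2B (H2Bub) over these arrays is described here in growing and in differentiated muscle cells. The arrays were taken as 2 fixed intervals of build mm9, chr13:21800001-22140000 (interval 1, 340 kb) and chr13:23620001-23870000 (interval 2, 250 kb). The intervals are set by position and by no measured value, though earlier results of these data were known when they were chosen. Cut into 2 kb bins, they hold 170 and 125 bins, or 295 of the 1319478 bins of chromosomes 1 to 19 and X. H2Bub was mapped by chromatin immunoprecipitation and sequencing in C2C12, an established mouse myoblast line that fuses into multinucleate myotubes when serum is withdrawn (the source labels write C1C12). Myoblasts (MB, 3 libraries) were growing in DMEM with 10% FBS and were harvested at about 40% confluency, and myotubes (MT, 3 libraries) were harvested 96 h (4 days) after confluent cells were moved to DMEM with 2% horse serum. All libraries were made from chromatin digested with micrococcal nuclease and precipitated with H2Bub clone 56. Both groups come from 1 cell line, each library carries its own antibody lot number in the labels, and input or spike-in libraries were not analysed here, so absolute levels of the mark cannot be compared between the groups.

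Histone genes of this kind are switched on in S phase, when new chromatin needs histones, and are largely silent in cells that have left the cell cycle, as myotubes have. They are short and mostly intronless, and their messages end in a stem-loop bound by Slbp in place of a poly(A) tail. Npat, a substrate of cyclin E with Cdk2, drives their transcription in nuclear bodies that form on the arrays. H2Bub is laid down by the ligase Rnf20 with Rnf40 together with the conjugating enzymes Ube2a and Ube2b, travels with elongating RNA polymerase II through gene bodies, and is removed by enzymes that include Usp22.

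By symbols that begin with H1f, H2ac, H2bc, H3c or H4c and a number, RefSeq (GRCm38.p6) names 55 clustered histone genes on chromosome 13. Of these, 53 code for proteins and 2 are pseudogenes. There are 14 genes for H2B and 15 for H2A, which form the outer dimers of the nucleosome, 9 for H3 and 11 for H4, which form its core tetramer, and 6 for the linker histone H1. Their median length is 487 bp, and the 4 genes longer than 1000 bp all code for H2B (H2bc22, H2bc23, H2bc6 and H2bc4). In that listing, the run from H2bc13 to H2bc11 holds 23 histone genes, 7 of them for H2B, and 41 other genes, 31 of which are transfer RNA genes. Another 4 of the 41 code for proteins: Zfp184, Pom121l2, Prss16 and H4bc24. The symbol H4bc24 falls outside the pattern used, so that gene is left out of all counts of histone genes here. The run from H4c8 to H1f1 holds 30 histone genes, 6 of them for H2B, and 4 other genes, among them the iron-homeostasis gene Hfe. H2bc1 and H2ac1, the testis-expressed pair, are listed beyond these runs. No annotation of build mm9 was at hand, so gene positions could not be checked against the intervals, and no gene was assigned to a bin or a peak. For the same reason no value is given for Slbp, Npat, Rnf20, Rnf40, Usp22 or the other processing and histone chaperone genes of the pathway.

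The upstream sequences of 5 H2B genes are shown because the octamer ATTTGCAT is an element known from H2B promoters, some of which also serve an H2A gene on the other strand. These 5 were picked for holding the exact octamer in the 150 bases shown, with the testis-expressed H2bc1 left out. They therefore need not be typical of H2B promoters. Each line gives the 150 bases before the RefSeq transcription start (GRCm38.p6) on the gene's own strand, 5′ to 3′, and the capitals mark the octamer and each CCAAT box, on either strand (ATTGG is CCAAT on the other strand).
H2bc14: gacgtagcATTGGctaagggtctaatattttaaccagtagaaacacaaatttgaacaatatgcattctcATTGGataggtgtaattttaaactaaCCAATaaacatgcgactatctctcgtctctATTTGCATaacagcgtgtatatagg
H2bc12: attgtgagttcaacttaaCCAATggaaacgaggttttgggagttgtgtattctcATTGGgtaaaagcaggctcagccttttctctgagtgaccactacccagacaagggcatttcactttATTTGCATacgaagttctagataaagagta
H2bc8: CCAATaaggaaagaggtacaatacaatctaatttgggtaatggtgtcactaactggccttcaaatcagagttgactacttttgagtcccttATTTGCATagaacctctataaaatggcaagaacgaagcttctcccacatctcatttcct
H2bc6: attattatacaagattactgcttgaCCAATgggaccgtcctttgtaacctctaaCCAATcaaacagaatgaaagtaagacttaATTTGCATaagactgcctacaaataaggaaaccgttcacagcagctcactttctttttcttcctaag
H2bc3: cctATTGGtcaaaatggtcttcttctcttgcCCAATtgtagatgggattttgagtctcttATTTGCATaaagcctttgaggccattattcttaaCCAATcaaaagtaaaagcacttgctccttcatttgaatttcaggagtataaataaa

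The octamer begins 25 bases before the start in H2bc14, 30 in H2bc12, 59 in H2bc8, 67 in H2bc6 and 90 in H2bc3. In windows of 250 bases before to 50 bases after the start, which 50 of the 55 genes have in 51 windows, ATTTGCAT was present on either strand in 6 of 14 H2B windows and 5 of 13 H2A windows. It was present in 0 of 7 H3, 0 of 11 H4 and 0 of 6 H1 windows, and in 1.74% of the 32851 promoter windows of all genes. With any base at the sixth position (ATTTGNAT, which includes the octamer), the counts were 12 of 14 for H2B and 10 of 13 for H2A, against 4.36% of all windows. Of the 13 H2A windows, 9 share bases with an H2B window on the opposite strand, so the H2A and H2B counts are not independent of each other. CCAAT was found in every H2B, H2A, H3 and H1 window (14, 13, 7 and 6) and in 3 of 11 H4 windows, against 37.4% of all windows. TATAAA was found in 7 of 14 H2B, 8 of 13 H2A, 4 of 7 H3, 8 of 11 H4 and 4 of 6 H1 windows, against 13.6% of all windows.

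The libraries held between 8767810 and 15903500 reads, with MB replicate 3 and MT replicate 3 the deepest. Read density in 2 kb bins that hold an MB peak was 9.16 ± 1.63 times that in bins without peaks in MB and 1.79 ± 0.31 times that level in MT (mean and SD of 3 libraries). In RPM (reads per 1000000 reads of the library), bins without peaks had a value 1.58-fold higher in myotubes, and RPM values of the histone intervals are to be read beside that figure. Nothing in the labels ties the replicates to separate cultures, and p-values then reflect just how much these libraries vary, a spread that may be technical.

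The histone intervals held no myoblast peak of H2Bub. Of the 191324 peaks in the authors' MB list, 0 overlapped interval 1, interval 2 or the 100 kb on either side of each. In proportion to length, the list would place 42.8 peaks in the 590 kb of both intervals, since it holds 72.5 peaks per Mb over chromosomes 1 to 19 and X and 73.1 per Mb on chromosome 13. Stretches of this length without an MB peak were common: 51.1% of 7574 consecutive 340 kb windows and 56.7% of 10307 consecutive 250 kb windows held none. Taking reads in MB peaks as the measure, the share of reads from the intervals was therefore 0% in all 6 libraries.

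Both intervals sit within longer peak-free gaps of the myoblast list. Interval 1 lies in a gap of 1823 kb, from 21621796 to 23444707, which begins 178 kb before it and ends 1305 kb after it. Of the 191304 gaps between neighbouring MB peaks, 270 were as long or longer. Interval 2 lies in a gap of 757 kb, from 23514793 to 24272136, with the nearest MB peaks 105 kb to its left and 402 kb to its right, and 739 gaps were as long or longer. The 1280 kb between the intervals, without the 100 kb flank of each, hold 18 MB peaks and 4 MT peaks.

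The nearest myoblast peaks show what an enriched site in this neighbourhood looked like. The peak to the left of interval 1 (chr13:21620781-21621795) had 3.23, 2.48 and 2.14 RPM in the MB libraries and 0.571, 0.433 and 1.04 RPM in the MT libraries. The peak to the left of interval 2 (chr13:23513677-23514792) had 1.83, 3.05 and 3.40 RPM in MB and 1.03, 1.08 and 1.18 RPM in MT. Every MB library was above every MT library at both. The narrower peak to the right of interval 2 (chr13:24272137-24272358) had 0.538, 0.381 and 0.440 RPM in MB and 0, 0.433 and 0 RPM in MT, with overlap. At the peak to the left of interval 2, the log2 fold change of MT over MB was -1.25 (SE 0.33, limma voom adjusted p = 0.00107). The peak lists are the authors' own for these same groups, so a fall at an MB peak is not independent evidence of a direction.

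Across the intervals themselves, H2Bub reads were sparse and lay near the level of chromatin without peaks. Interval 1 had 78.8, 68.0 and 75.5 RPM in the MB libraries, from 713 to 1200 reads, and 127, 122 and 118 RPM in the MT libraries, from 1113 to 1714 reads. All 3 MT libraries were above all 3 MB libraries, with means of 74.1 ± 5.57 and 122.5 ± 4.32 RPM (SD, n = 3), or 1.65-fold (log2 0.73). Interval 2 had 56.3, 47.3 and 52.3 RPM in MB, from 496 to 831 reads, and 103, 107 and 107 RPM in MT, from 906 to 1542 reads. Here too the groups did not overlap, with means of 52.0 ± 4.53 and 105.5 ± 1.81 RPM, or 2.03-fold (log2 1.03). An exact two-sided permutation test gave p = 0.1 for each interval, the smallest that 3 against 3 libraries can give (0.1625 after Benjamini-Hochberg adjustment over 13 such comparisons).

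Density ratios within a library do not depend on how libraries are scaled to each other. Relative to bins without peaks, the density of interval 1 was 1.02, 0.977 and 0.926 in the MB libraries and 1.08, 0.989 and 1.00 in the MT libraries. The groups overlapped, with means of 0.974 ± 0.047 and 1.02 ± 0.047 (exact permutation p = 0.4, adjusted p = 0.473). In interval 2 the ratio was 0.992, 0.924 and 0.872 in MB and 1.19, 1.17 and 1.23 in MT. The groups did not overlap, and the means of 0.929 ± 0.060 and 1.20 ± 0.027 differed by 1.29-fold (exact permutation p = 0.1, adjusted p = 0.1625). Interval 1 thus held as many reads per kb as peak-free chromatin in both groups, within the spread between libraries, and interval 2 held slightly more of them in myotubes.

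**Figure D1:**
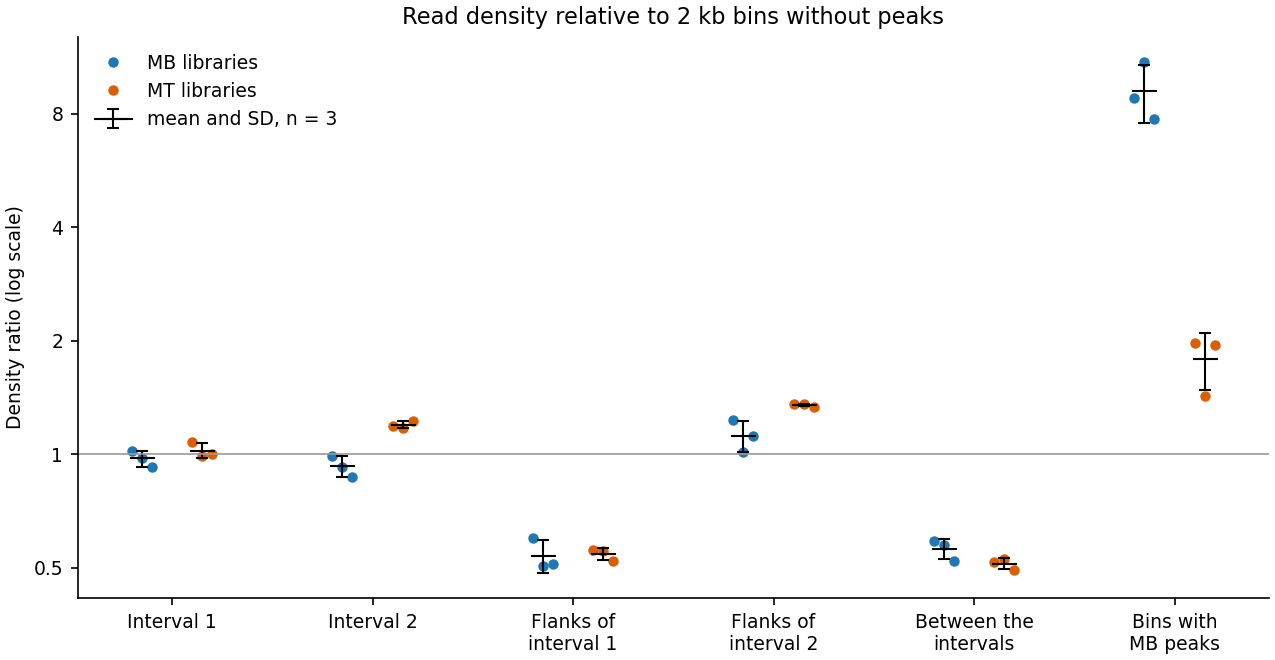
Read density (log axis, no unit) of each interval, its 100 kb flanks on both sides, the sequence between the intervals and all 2 kb bins with MB peaks, each divided by the density of 2 kb bins without peaks in the same library. Points are libraries and bars the mean and SD of 3; the intervals stay near 1 in both groups, with interval 2 at 0.929 in MB and 1.20 in MT, while bins with MB peaks go from 9.16 in MB to 1.79 in MT.

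The flanks of interval 2 showed a like difference between the groups. Relative to bins without peaks, the 100 kb flanks of interval 2 had a density of 1.12 ± 0.107 in MB and 1.35 ± 0.011 in MT, and the flanks of interval 1 had 0.538 ± 0.053 and 0.545 ± 0.020. Interval 1 was therefore denser than its own flanks, by 1.82 ± 0.115 in MB and 1.88 ± 0.080 in MT (exact permutation p = 0.7, adjusted p = 0.758). These flanks were sparsely covered, with a median of 14 reads per bin over the 6 libraries against 43 in interval 1. Of their 100 bins, 39 had at least 30 reads and 15 had none. Among bins with at least 30 reads, the MB median was 0.501 RPM in these flanks and 0.481 in interval 1, and the MT median 0.775 and 0.912. The ratio thus depends on bins with few or no reads, and why they were sparse was not tested. Interval 2 was a little sparser than its flanks, at 0.832 ± 0.068 and 0.887 ± 0.026 (exact permutation p = 0.3, adjusted p = 0.39). For both intervals over all flanks the ratio was 1.16 ± 0.086 in MB and 1.16 ± 0.034 in MT (exact permutation p = 0.9). The outcome depended on the length of the flanks: with 200 kb, which reaches the nearest MB peaks on the left of both intervals, the log2 difference of MT from MB in this ratio was 0.41 in place of 0.0036 (exact permutation p = 0.1). By interval it was 0.43 and 0.50, each at the same exact permutation p of 0.1. The arrays also differed from each other: the density of interval 2 over that of interval 1 was 0.972, 0.946 and 0.942 in MB and 1.11, 1.19 and 1.22 in MT, without overlap (exact permutation p = 0.1, adjusted p = 0.1625).

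Single 2 kb bins of the arrays showed the same low level. Of the 295 bins, 218 had at least 30 reads summed over the 6 libraries and were tested (121 in interval 1 and 97 in interval 2), and 22 had no read in any library (7.46%, against 9.08% of all bins). Of these empty bins, 19 were in interval 1 (11.2% of its bins) and 3 in interval 2 (2.4%). Over the tested bins the MB mean ran from 0.152 to 1.75 RPM with a median of 0.462, and the MT mean from 0.467 to 2.24 RPM with a median of 0.941. Bins with MB peaks had medians of 3.19 RPM in MB and 1.21 RPM in MT. The highest myoblast bin of the arrays therefore lay below the middle of the bins that hold a myoblast peak.

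**Figure D2:**
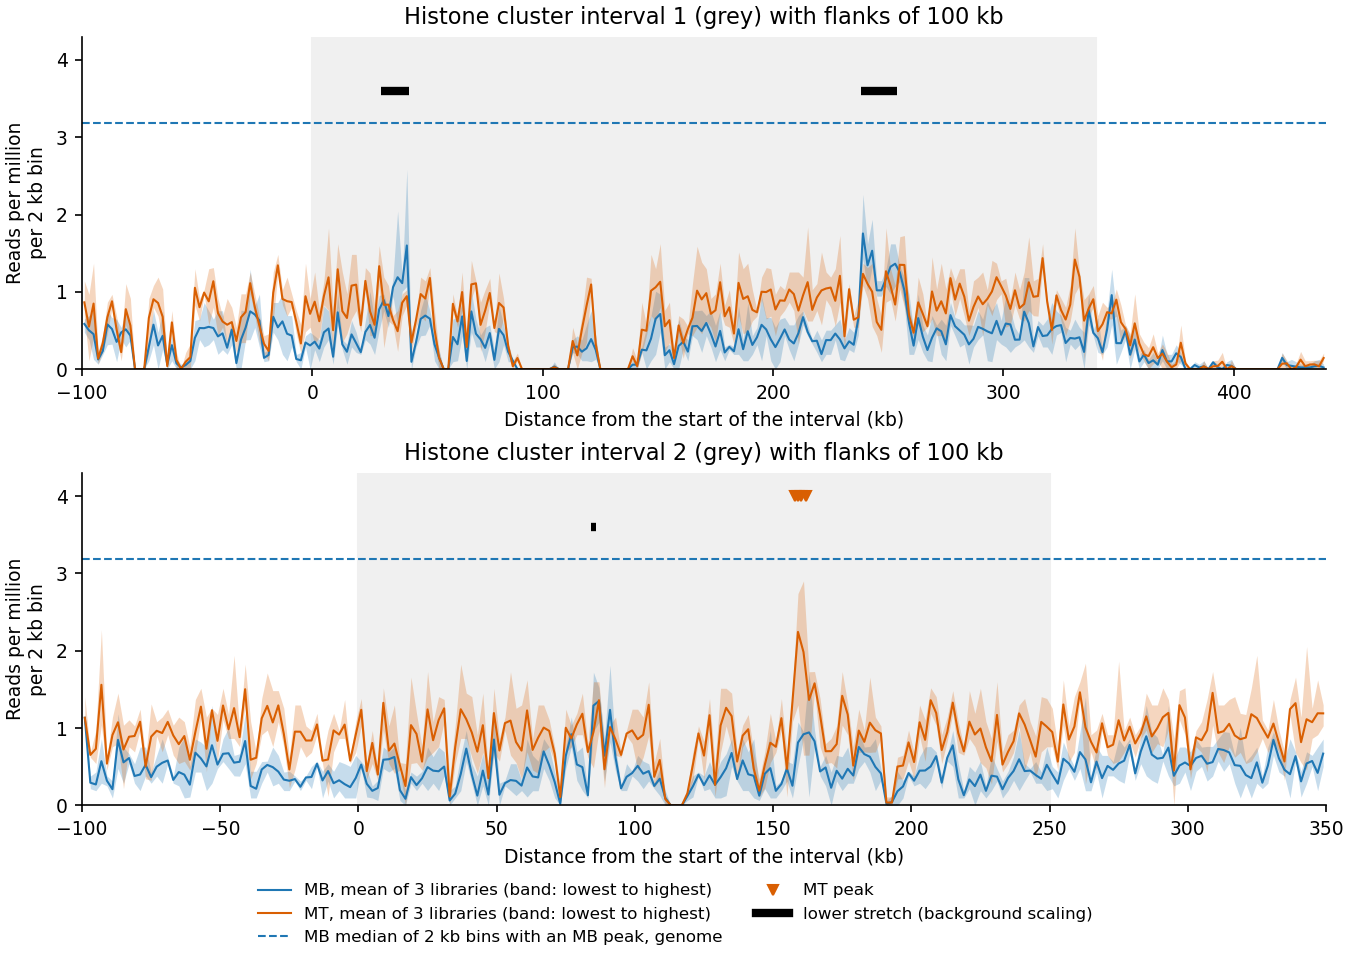
Mean RPM per 2 kb bin (lines) and the range over 3 libraries (bands) in MB and MT, against the distance from the start of each interval in kb; grey marks the interval, black bars the stretches lower in MT with background scaling, triangles the 4 MT peaks, and the dashed line the MB median of bins with MB peaks, 3.19 RPM. The means of both groups stay below that line in every bin, the MT line lies mostly above the MB line, and the MT maximum of interval 2 is at the MT peaks.

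Scaled by total reads, 52 of the 218 tested bins were higher in MT and 0 were lower (limma voom, adjusted p under 0.05 over all 939176 bins tested), or 20 of 121 in interval 1 and 32 of 97 in interval 2. Over all bins tested, 15.7% were called higher and 11.2% lower, and over bins without peaks 17.5% and 1.34%. The flanks gave 31 higher and 0 lower of 132. The median log2 fold change was 0.85 in interval 1, 1.06 in interval 2, 0.84 in the flanks and 0.74 in bins without peaks. At an unadjusted p under 0.05 (limma voom), 106 bins were higher and 5 lower. At that threshold 303870 of all 939176 bins were higher and 121148 lower. Of the 815982 bins without peaks, 297103 were higher and 19792 lower. Every MT library was above every MB library in 112 of the 218 bins, beside 36.4% of all bins, and below in 6, all in interval 1, beside 12.6%. Among bins without peaks, which are more like these intervals, the shares were 41.2% above and 2.55% below.

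The direction of these calls depended on the scaling. With trimmed mean factors from 10 kb windows of the whole genome (background scaling), 5 bins were higher and 13 lower, where all bins gave 0.327% higher and 17.4% lower and bins without peaks 0.355% and 6.43%. That change of scaling moved the median log2 fold change of all bins from 0.65 to -0.04 and that of the histone bins from 0.93 to 0.23. The number of calls also rested on MB replicate 3, the deepest myoblast library: without it 1 bin was higher and 1 lower, and all bins gave 10493 higher calls in place of 147798. Without MB replicate 1 or MB replicate 2, 23 and 19 bins were higher and 0 lower. All bins gave 6.64% higher and 9.63% lower without MB replicate 1, and 4.55% and 8.43% without MB replicate 2. In windows of 10 kb, 48 of 55 were higher and 2 lower with total reads, beside 69.5% and 12.7% of all windows, and 4 and 3 with background scaling, beside 1.99% and 18.1%. Windows without peaks gave 80.6% higher and 0.924% lower with total reads, and 2.22% and 5.01% with background scaling.

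**Figure D3:**
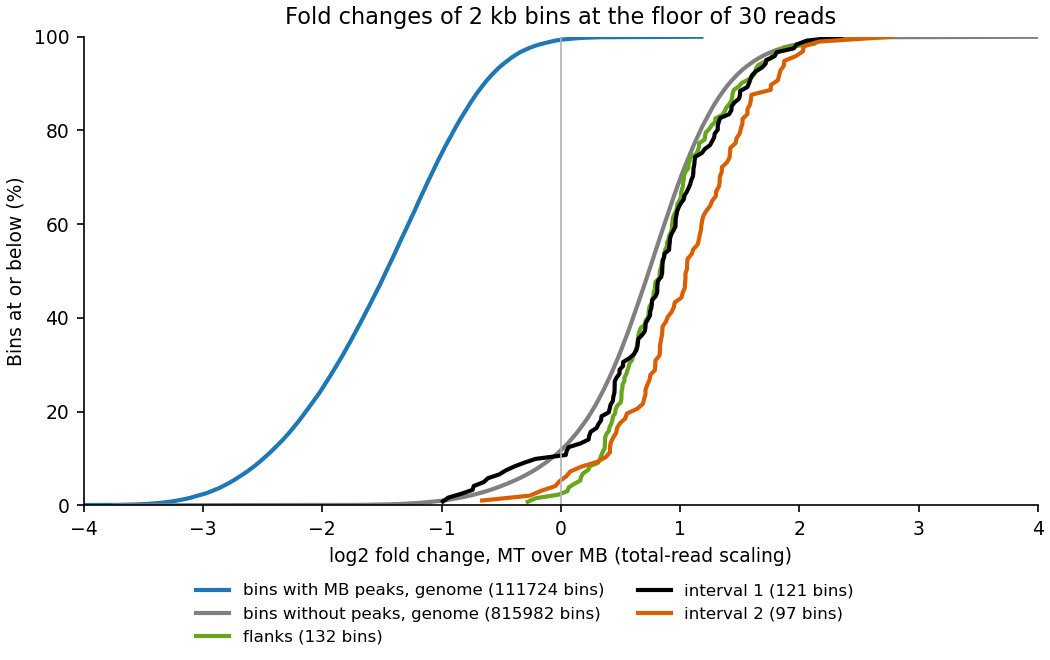
Cumulative share (percent) of tested 2 kb bins at or below each log2 fold change of MT over MB, with total-read scaling, for interval 1, interval 2, the flanks, all bins without peaks and all bins with MB peaks. The histone intervals follow the bins without peaks, interval 2 is shifted to the right (median 1.06 against 0.74), and bins with MB peaks lie far to the left.

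Interval 1 contained the myoblast maxima of the arrays, in a pair of stretches where the lower calls under background scaling were gathered. Under that scaling 12 of the 121 tested bins of interval 1 were lower (9.92%), beside 6.43% of bins without peaks and 17.4% of all bins. These stretches were joined from called bins after the values were seen, so they are described without a test. Lower MT values in them are favoured by that choice. The first, chr13:21830001-21842000 (12 kb, 5 of 6 bins called), had 8.51, 6.0 and 5.10 RPM in MB and 4.57, 5.63 and 3.59 RPM in MT, with overlap. Relative to bins without peaks, its density was 3.12, 2.44 and 1.77 in MB and 1.10, 1.29 and 0.861 in MT, without overlap. The second, chr13:22038001-22054000 (16 kb, 7 of 8 bins called), had 11.2, 11.1 and 9.31 RPM in MB and 8.90, 7.14 and 6.84 RPM in MT, and every MB library was above every MT library. Its relative density was 3.08, 3.38 and 2.43 in MB and 1.60, 1.23 and 1.23 in MT.

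The bin of interval 1 with the highest mean over all 6 libraries, chr13:22038001-22040000, opens the second stretch. It had 1.75 ± 0.445 RPM in MB and 1.23 ± 0.144 in MT, and the log2 fold change was -0.46 (adjusted p = 0.205, limma voom), or -1.18 with background scaling (adjusted p = 0.00306). Its myoblast level was above that of 98.5% of bins without peaks and above that of 9.33% of bins with MB peaks. The bin was picked as the highest of 121, so these shares are a description of its level. Interval 2 had 1 lower call, the lone bin chr13:23704001-23706000, with a relative density of 3.79, 2.33 and 2.49 in MB and 2.30, 1.04 and 0.696 in MT. With the lower stretches left out, the density of interval 1 relative to bins without peaks was 0.816 ± 0.018 in MB and 1.00 ± 0.042 in MT, and that of interval 2 was 0.914 ± 0.055 and 1.20 ± 0.030. The bins left out were those called lower in MT, so leaving them out raises MT against MB by construction, and nothing is read from the order of the groups in the remainder.

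Interval 2 contained all the myotube peaks of the arrays. The authors' MT list has 4 peaks in it and 0 in interval 1 or in the flanks, which is 16.0 per Mb in interval 2 and 6.78 per Mb over both intervals, against 9.75 per Mb over chromosomes 1 to 19 and X. They lie side by side within 3913 bp, chr13:23777935-23781847, cover 1105 bases, and do not overlap any MB peak.

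Reads at these peaks were few in every library. Peak 1 (chr13:23777935-23778172, 238 bp) had 1, 1 and 1 reads in the MB libraries and 9, 5 and 6 in the MT libraries. Peak 2 (chr13:23779009-23779291, 283 bp) had 2, 3 and 1 in MB and 7, 3 and 13 in MT. Peak 4 (chr13:23781749-23781847, 99 bp) had 0, 0 and 1 in MB and 3, 1 and 4 in MT. In RPM the groups did not overlap at any of them, but with fewer than 30 reads in all they were below the floor of the test.

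Peak 3 (chr13:23779958-23780442, 485 bp), the widest, was the 1 peak of the 4 with enough reads to be tested. It had 2, 2 and 5 reads in MB and 7, 5 and 22 in MT, or 0.240 ± 0.066 and 0.954 ± 0.508 RPM, with every MT library above every MB library. The log2 fold change was 1.70 (SE 0.61, limma voom adjusted p = 0.0121), where 0.178% of the 130496 peak regions tested were called higher in MT and 85.2% lower. Of the regions tested, 129227 held an MB peak and 0 of those were called higher. All 232 higher calls thus fell on the few regions with an MT peak alone, among which such a call was far more common than 0.178%. With background scaling, under which 98.0% of regions were called lower, it was 0.98 (adjusted p = 0.120), and without MB replicate 3 it was 1.94 (adjusted p = 0.0873), so the call ended under both. Without MT replicate 3 the region had too few reads to be tested. With no floor all 4 peaks were called higher, beside 2.87% of all regions (75.8% were called lower). Here too, of 202354 regions in all, 190669 held an MB peak and 0 of those were called higher. The 5817 higher calls were all on the remaining regions, those with an MT peak alone, so 2.87% far understates how common such a call was among them. The MT list is the authors' own for the same group of samples, so the direction at its peaks is not independent evidence.

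**Figure D4:**
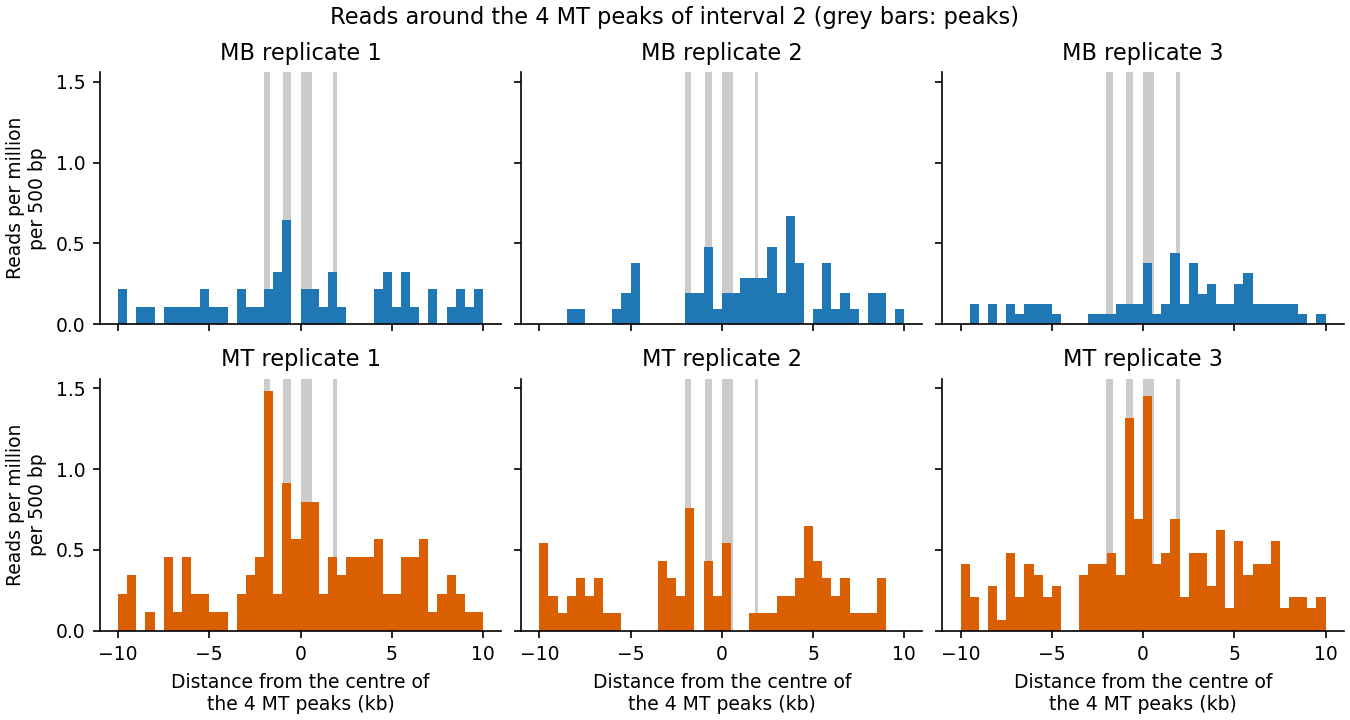
RPM per 500 bp (vertical axis) within 10 kb of the centre of the 4 MT peaks (horizontal axis, kb) in each of the 6 libraries; grey bars are the peaks. The highest 500 bp reach 1.48 RPM in MT replicate 1 and 1.45 RPM in MT replicate 3, against 0.757 RPM in MT replicate 2 and at most 0.667 RPM in the MB libraries.

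Over the whole span of the 4 peaks, 1 myotube library was at the myoblast level. The span had 2.05, 1.91 and 1.45 RPM in the MB libraries, from 19 to 23 reads, and 5.48, 2.06 and 5.88 RPM in the MT libraries, from 48, 19 and 85 reads. MT replicates 1 and 3 were high, and MT replicate 2 was close to MB replicate 1. Relative to bins without peaks, the density of the span was 2.30, 2.38 and 1.54 in MB and 4.03, 1.45 and 4.32 in MT, so that the groups overlapped and MT replicate 2 was the lowest of all 6 (exact permutation p = 0.4). Relative to interval 2 as a whole, the span had 2.32, 2.58 and 1.77 in MB and 3.38, 1.23 and 3.52 in MT, again with overlap (exact permutation p = 0.8).

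The bin of interval 2 with the highest mean over all 6 libraries, chr13:23778001-23780000, falls within this span. It had 0.813 ± 0.289 RPM in MB and 2.24 ± 0.820 RPM in MT, and the log2 fold change was 1.51 (adjusted p = 0.00063, limma voom), or 0.79 with background scaling (adjusted p = 0.145). This bin was picked as the highest of 97, and it overlaps MT peaks of the authors' list for the same samples. Its direction is therefore not independent evidence. The bin before it, chr13:23776001-23778000, was 1 of the 5 called higher under background scaling and had the largest log2 fold change of the tested bins. It had 0.538, 0.0953 and 0.126 RPM in MB and 1.48, 1.08 and 1.45 RPM in MT, without overlap. Its log2 fold change was 2.78 with total reads (limma voom adjusted p = 0.0112) and 2.13 with background scaling (adjusted p = 0.0497). It was picked by that call and by its fold change, and its end overlaps MT peak 1. Its values and p-values are therefore a description and not independent evidence of a direction. The other 4 called higher were lone bins, beginning at 22028001 and 22130001 in interval 1 and at 23656001 and 23752001 in interval 2, none of them next to another such bin. All 5 were chosen here by that call.

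The sequence between the arrays, where the MB list does have peaks, held 20 peak regions. Of the 10 with enough reads to be tested, 7 were lower and 0 higher in MT, beside 85.2% lower over all regions, and with background scaling 10 were lower, beside 98.0%. Its 2 kb bins gave 20 higher and 9 lower calls of 165 with total reads, beside 15.7% and 11.2% of all bins, and 1 higher and 14 lower with background scaling, beside 0.327% and 17.4%. Its density relative to bins without peaks was 0.561 ± 0.035 in MB and 0.513 ± 0.017 in MT, with overlap, below that of both histone intervals in every library.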

How the data were processed

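Per the submitters' processing notes, the build is mm9. As deposited by the authors, each library is a list of read positions with strand, and each group has 1 list of peaks without scores. The sources used here do not give the aligner, read length, peak caller, threshold or pooling. No line was repeated (0 in each library), which can compress dense regions.

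Reads of chromosomes 1 to 19 and X were then assigned to 2 kb bins and to the 202354 merged peak regions. All bins or regions with at least 30 reads over the 6 libraries (25 with a library left out) were fitted with voom in limma 3.58.1 (R 4.3.3, moderated two-sided test, Benjamini-Hochberg over all tested, threshold 0.05), with library size the reads on those chromosomes. Background scaling used trimmed mean of M-values factors over 10 kb windows. Exact two-sided permutation tests were used for values per library. The fit was tested on simulated data. Python 3.11.15, NumPy 2.4.6, pandas 2.3.3 and matplotlib 3.10.9 did the rest.

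The intervals, gene lists and tests were chosen with earlier results of these data known. Named items were the peaks in the intervals and the bin of each interval with the highest mean. Bins called under background scaling were described as well, picked by that call after the values were seen. Called stretches joined bins across at most 2 others. The planned result for histone gene bodies was not run, since it needs an mm9 annotation. Promoter sequences and gene names are RefSeq's, on GRCm38.p6, with no conversion of coordinates. Replicate numbers were not taken to pair libraries: deviations of same-numbered libraries from their group means correlated at 0.005, -0.052 and 0.060 over the tested bins.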

Additional observations from a re-analysis of the deposited data

How the results depend on the processing

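Counts of called bins and the density over the flanks both changed with the processing. Beside the 52 of 218 tested histone bins called with total reads, background scaling called 18 of 218 (5 higher, 13 lower). No floor called 82 of 273, and 1 kb bins 10 of 118 (9 higher, 1 lower). Over all bins, 15.7% were called higher and 11.2% lower with total reads, and 0.327% and 17.4% with background scaling. With no floor these shares were 16.2% and 8.41%, and with 1 kb bins 4.01% and 21.2%. Leaving out 1 library gave 2 to 48, of 187 to 231 tested, with the lowest value without MB replicate 3. All bins then gave 1.13% higher and 9.74% lower, and 12.5% and 10.4% without MT replicate 2, which gave the 48. In the flanks, 31 bins became 1 with background scaling (0 higher, 1 lower) and 2 to 27 with 1 library left out. Of the peak regions, 1 of 1 tested was called with total reads, 0 of 1 with background scaling, 4 of 4 with no floor, and 0 to 2 with 1 library left out. Over all regions, 0.178% were called higher and 85.2% lower with total reads, and 0.0261% and 98.0% with background scaling. With no floor these shares were 2.87% and 75.8%. With 1 library left out, 0.0495% to 0.201% were higher and 64.6% to 88.4% lower. The upper 50% of MT peaks by width kept 2 of the 4. The log2 difference in density over the flanks, 0.0036, was -0.031 with flanks of 50 kb, -0.032 with intervals narrowed by 20 kb and -0.030 to 0.064 with 1 library left out, all inside the spread between libraries, but 0.41 with flanks of 200 kb. In interval 1 it was -0.00089 with the narrowed interval in place of 0.048. The cause of these shifts was not tested. Limma-trend called 68 histone bins and shifted read positions 57, and the exact-test results kept their direction apart from those named. Their size did not always hold. With background scaling the log2 difference in RPM fell from 0.73 to 0.0225 in interval 1 (exact permutation p = 0.6). In interval 2 it fell from 1.03 to 0.32 (exact permutation p = 0.1). Of all bins, limma-trend called 19.6% higher and 10.9% lower, and shifted positions 15.8% and 11.2%. The planned fit of histone gene bodies was not run.

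As a pairing check, a replicate block called 71 histone bins higher and 0 lower, 39 in the flanks and 1 peak region. It called 20.6% of all bins higher and 11.8% lower, and 0.187% of all peak regions higher and 86.0% lower. The following were chosen after seeing the data. Background scaling with the replicate block called 16 histone bins (2 higher, 14 lower), 1 in the flanks and 1 peak region, and background scaling without MT replicate 2 called 18 (6 higher, 12 lower), 0 and 2. The shares over all bins were 0.144% higher and 18.4% lower with the block, and 0.411% and 16.4% without MT replicate 2. At the highest bin of interval 1 the log2 fold change under background scaling, with the block, and without MT replicate 2 was -1.18, -1.18 and -1.06. With a median of 43 reads per bin over all 6 libraries, differences in single bins could be missed at this depth. On simulated data the fit missed the smaller changes and most lowered bins. Those data changed at most 50 of 915641 bins at each fold size, which makes the adjusted threshold stricter. In the real data 15.7% of bins were called higher and 11.2% lower, so the simulated recovery does not carry over to them. Whether few bins were lower cannot be read from the simulation or from a low number of lower calls.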
